A study of Homo sapiens with 27 samples.

Results

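The cluster of miR-371, miR-372 and miR-373 was followed through small RNA libraries of H1 human embryonic stem cells (hESCs), an established pluripotent line, and of K562, an established chronic myelogenous leukaemia line. Its members were taken by name: 8 mature miRNAs, miR-371a, miR-371b, miR-372 and miR-373 with a 5p and a 3p arm each, of 2276 miRNAs listed in any of the 9 count tables. There were 27 libraries in 9 groups of 3. The 5 hESC groups were USB1 mutant cells carrying short hairpins against the poly(A) polymerase PAPD5 (shPAPD5), USB1 mutant cells with a doxycycline-inducible USB1 transgene with doxycycline (iUSB1 +Dox) and without it (iUSB1 −Dox), the USB1 mutant itself and wild type (WT). The mutant, made with CRISPR, carries a deletion of 1 A in USB1, a 3′ exonuclease that trims small RNAs, and this allele is shared by the shPAPD5, +Dox and −Dox cells, in which hairpins or transgene sit at the AAVS1 safe-harbour locus. Mutant hESC clones were picked by hand. The 4 K562 groups were USB1 knockout (KO) cells with hairpins against PARN, a deadenylase that acts on small RNA tails (KO shPARN), KO cells, control cells with PARN hairpins (control shPARN) and control cells, with the KO derived from single cells. In comparisons with WT or control cells, an effect of USB1 loss and a difference between clones cannot be told apart. No group carries a non-targeting hairpin, so an effect of PAPD5 or PARN loss and an effect of introducing a hairpin cannot be told apart. In bulk RNA, fewer cells with a miRNA and less miRNA per cell cannot be told apart either.

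The cluster is transcribed in pluripotent cells and switched off as they differentiate, and its mouse counterpart is miR-290-295. miR-372 and miR-373 were found in a screen as miRNAs that let cells grow despite active p53, with the kinase LATS2 among their targets. The cluster is also made by germ cell tumours, for which miR-371a-3p in serum is used as a marker.

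The 4 hairpins lie within 1099 bases of chromosome 19, from 53787675 to 53788773 (GRCh38.p14), 25244 bases after the last hairpin of C19MC, a large primate cluster active in placenta and pluripotent cells. MIR371A (53787675 to 53787741), MIR372 (53787890 to 53787956) and MIR373 (53788705 to 53788773) are on the plus strand, and MIR371B (53787677 to 53787742) lies on the minus strand over MIR371A. In GENCODE v44, MIR371A, MIR371B and MIR372 fall in an intron of the plus-strand lncRNA ENSG00000269564 and in an exon of the minus-strand lncRNA ENSG00000269877, and MIR373 falls in an exon of ENSG00000269564. All 8 members matched a mature sequence in RefSeq (GRCh38.p14). They are printed 5′ to 3′ because seed and strand decide how the members are counted and grouped, with the seed, bases 2 to 8, in capitals.
hsa-miR-372-3p: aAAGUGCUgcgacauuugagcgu
hsa-miR-373-3p: gAAGUGCUucgauuuuggggugu
hsa-miR-371a-3p: aAGUGCCGccaucuuuugagugu
hsa-miR-371b-3p: aAGUGCCCccacaguuugagugc
hsa-miR-371a-5p: aCUCAAACugugggggcacu
hsa-miR-371b-5p: aCUCAAAAgauggcggcacuuu
hsa-miR-372-5p: cCUCAAAUguggagcacuauucu
hsa-miR-373-5p: aCUCAAAAugggggcgcuuucc
The seed is the part of a miRNA that pairs with its targets. miR-372-3p and miR-373-3p share a seed with 10 other human miRNAs, miR-302a-3p to miR-302d-3p, miR-302e and the 3p arms of miR-520a to miR-520e. miR-371b-5p and miR-373-5p share another, held by 3 human miRNAs in all. The seeds of the other 4 members occur in no other human mature miRNA of the RefSeq table.

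Because the MIR371A and MIR371B hairpins overlap, their arms are complementary to each other. The capitals below mark the perfectly paired run, which covers all 20 bases of miR-371a-5p and 21 bases of miR-371a-3p.
hsa-miR-371a-5p: ACUCAAACUGUGGGGGCACU
hsa-miR-371b-3p: aAGUGCCCCCACAGUUUGAGUgc
hsa-miR-371a-3p: AAGUGCCGCCAUCUUUUGAGUgu
hsa-miR-371b-5p: ACUCAAAAGAUGGCGGCACUUu
Such runs of at least 15 bases are held by 200 of 2370 human mature miRNAs (8.44%). In these tables, pairs that are complementary over both whole lengths had near-equal counts: miR-3529-3p had 2794290 counts over the 15 hESC libraries and miR-7-5p 2776156, and over the 4 such pairs with at least 1000 counts the larger was 1.003 to 1.030 times the smaller. These pairs were chosen after their values were seen. The pair of miR-371a-5p and miR-371b-3p is complementary over the whole of its shorter member only, and had 4066 and 33041 counts. The 7 other pairs of that kind ran from near-equal counts (larger over smaller 1.01) to miR-3065-5p at 68.8 times miR-338-3p. Whether counting told the strands of the miR-371 arms apart is not settled by these values, and the split between miR-371a-5p and miR-371b-3p, and between miR-371a-3p and miR-371b-5p, is therefore given as uncertain.

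A table lists only miRNAs with a count in its first library, and a member missing from a table is called unlisted. In hESCs 6 members were listed in all 5 tables. miR-372-5p was unlisted in +Dox cells, and miR-373-5p was listed in WT and shPAPD5 cells alone. In K562 only miR-372-3p and miR-373-3p were listed in all 4 tables, and the 5p arms of both were listed in none. Total counts ran between 12258450 and 35734485 in hESC libraries and between 1530929 and 13183152 in K562 libraries. Levels are given as CPM, counts scaled by TMM to a library of 1e6 within a line, unless said otherwise. Differences between groups are log2 values beside which the standard error (SE) is given. The K562 control table was tied to its group by the description its samples share, and its libraries are numbered as its columns are. Pluripotency markers, miR-302a-3p to miR-302d-3p and miR-367-3p, summed to between 174032 and 380701 CPM in every hESC library, and blood markers to between 92.8 and 286 CPM, against 7309 to 10422 CPM in K562.

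WT library 1 held 0.930% of its counts in the cluster (95% Wilson interval 0.925 to 0.934%), where the other 14 hESC libraries held 0.00403 to 0.0931%. Intervals cover counting error only. miR-372-3p was the 16th most abundant miRNA of WT library 1 and ranked between 59 and 236 elsewhere. WT library 1 is therefore treated as a library that stands apart, and the members' results against WT are given with and without it. It was singled out by the members' own values, so in fits without it the members and all other miRNAs are not on an equal footing.

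miR-372-3p, the most abundant member, stood at 687, 426 and 542 CPM in shPAPD5 cells, 50.1, 33.2 and 70.2 CPM in +Dox cells, 177, 217 and 114 CPM in −Dox cells, 183, 148 and 135 CPM in the mutant and 6180, 405 and 402 CPM in WT. Every mutant, −Dox and +Dox library lay below every WT library, and the shPAPD5 libraries lay above WT libraries 2 and 3. miR-373-3p, which shares its seed, stood at 23.5, 14.3 and 22.3 CPM in shPAPD5 cells, 2.04, 1.05 and 1.73 CPM in +Dox cells, 6.52, 2.41 and 2.98 CPM in −Dox cells, 4.85, 3.61 and 4.20 CPM in the mutant and 271, 15.1 and 14.3 CPM in WT. The groups lay in the same way, except that the shPAPD5 libraries overlapped the 2 lower WT libraries.

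miR-371a-3p, the serum marker of germ cell tumours, stood at 25.3, 27.7 and 31.3 CPM in shPAPD5 cells, 3.55, 2.29 and 4.13 CPM in +Dox cells, 11.0, 14.7 and 9.33 CPM in −Dox cells, 11.6, 7.92 and 8.69 CPM in the mutant and 523, 24.0 and 25.1 CPM in WT. Its +Dox libraries lay below those of all other hESC groups. miR-371b-3p stood at 33.5, 37.6 and 56.1 CPM in shPAPD5 cells, 4.91, 2.69 and 3.16 CPM in +Dox cells, 14.2, 32.1 and 9.60 CPM in −Dox cells, 6.95, 12 and 10.1 CPM in the mutant and 1531, 36.5 and 38.0 CPM in WT. −Dox library 2 came close to the WT level here, while −Dox library 3 lay within the mutant range.

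The scarcer members followed. miR-371a-5p stood at 2.98, 3.22 and 5.36 CPM in shPAPD5 cells, 0.940, 0.262 and 0.376 CPM in +Dox cells, 2.02, 3.35 and 1.13 CPM in −Dox cells, 0.721, 1.23 and 0.974 CPM in the mutant and 194, 3.23 and 3.94 CPM in WT. It is the fitted member for which −Dox and WT libraries overlapped. miR-371b-5p had 6, 16 and 9 counts in shPAPD5 cells, 2, 2 and 3 in +Dox cells, 8, 5 and 4 in −Dox cells, 7, 7 and 1 in the mutant and 254, 9 and 15 in WT, so that outside WT library 1 its groups differ by few counts. miR-372-5p had 10, 13 and 16 counts in shPAPD5 cells, 6, 4 and 0 in −Dox cells, 8, 8 and 3 in the mutant and 651, 20 and 5 in WT. miR-373-5p had 5, 1 and 1 counts in shPAPD5 cells and 143, 1 and 3 in WT.

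**Figure D1:**
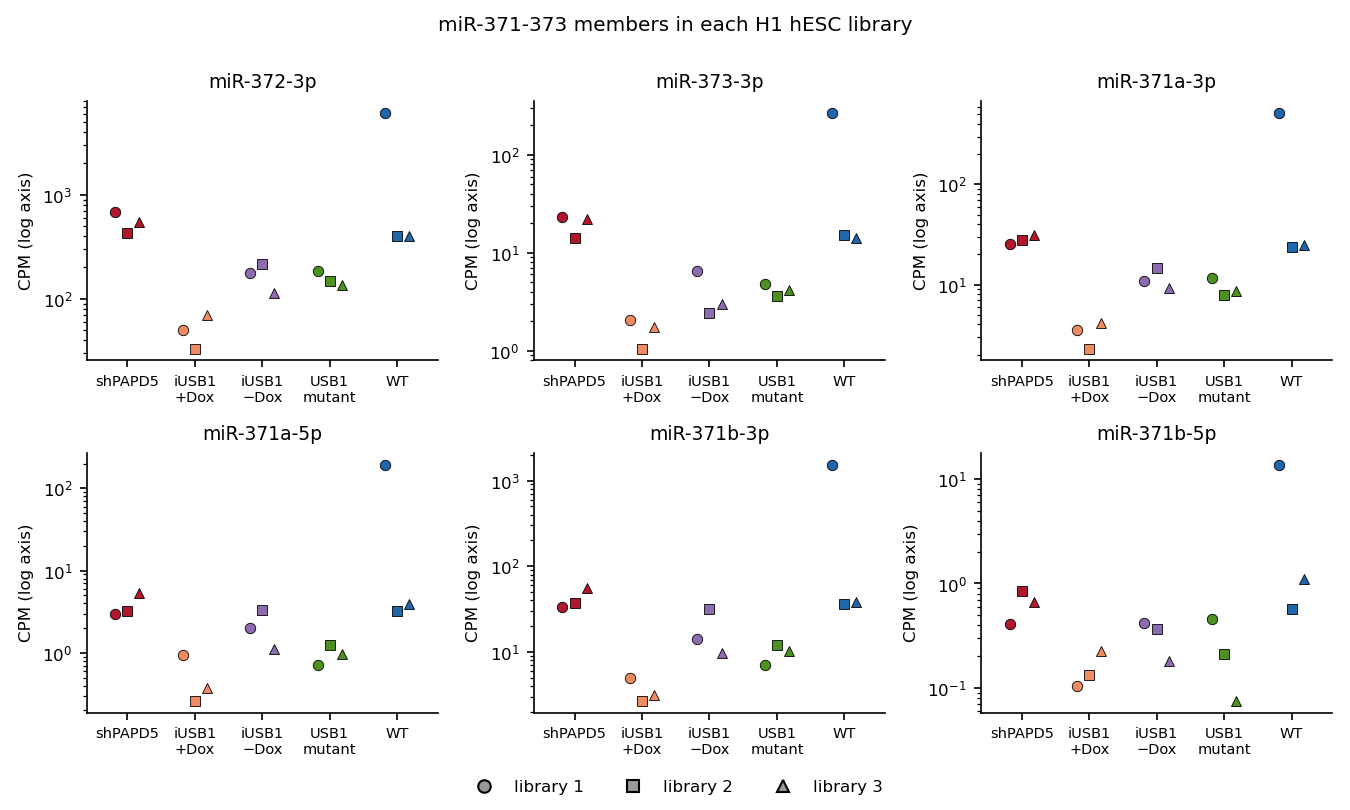
CPM of the 6 fitted members on log axes, 1 point per hESC library, with the marker shape giving the library number. WT library 1 lies above all other libraries in every panel (6180 CPM for miR-372-3p, where no other library passes 687), and the +Dox libraries lie below all others in 4 of 6 panels.

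For miR-372-3p the means ± SD were 552 ± 131 CPM in shPAPD5 cells, 51.2 ± 18.5 CPM in +Dox cells, 169 ± 51.8 CPM in −Dox cells and 155 ± 25 CPM in the mutant (n = 3 each), and 2329 ± 3335 CPM in WT, where the SD is that of library 1 against the rest. For 4 members, miR-372-3p, miR-373-3p, miR-371a-3p and miR-371b-3p, all +Dox libraries lay below all other hESC libraries, as for 1.5% of the 998 miRNAs fitted. The mutant and −Dox groups overlapped for all 6 fitted members. shPAPD5 and WT overlapped for all 6 as well.

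The 6 fitted members moved together over the 15 hESC libraries, with Pearson r of log2 CPM between 0.890 and 0.990 for their 15 pairs, and between 0.724 and 0.983 over the 14 libraries without WT library 1. These are descriptions: the libraries share groups, and the pairs share sequence. The highest value was that of miR-371a-5p with miR-371b-3p (0.990), and without WT library 1 that of miR-371a-3p with miR-372-3p (0.983). miR-371b-3p stood at 5.22 to 11.7 times miR-371a-5p in counts in every hESC library (median 9.67).

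WT library 1 differed from WT libraries 2 and 3 in this cluster more than in nearly all other miRNAs. All 8 members were higher there, by between 15.3-fold (miR-372-3p) and 55.0-fold (miR-373-5p) over the mean of the other 2 WT libraries. The last value rests on 1 and 3 counts in WT libraries 2 and 3. miR-371a-5p, with 51 and 54 counts in them, was 54.2-fold higher. Of the 998 miRNAs fitted in hESCs, 7 were at least 10-fold above both other WT libraries (and at 1 CPM or more), and 6 of the 7 were the fitted members of this cluster. The remaining miRNA was miR-1268a, named after its value was seen. In no other library of either line did a member pass that mark.

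Related clusters did not share an excess of this size. The 10 arms of miR-302/miR-367, the main pluripotency cluster, had a median log2 ratio of WT library 1 over the other WT libraries of 0.07, with 5 of 10 highest in that library. Over all 998 miRNAs the median was 0.02, with 429 highest in that library. C19MC, the neighbour on chromosome 19, had a median of 0.33 with 42 of 59 highest there, a larger share than among all miRNAs. let-7 miRNAs, which rise as stem cells differentiate, had a median of −0.97 with 0 of 9 highest. Of the fibroblast markers, which feeder cells would bring, 5 of 6 were highest in WT library 1 (median 0.75), and their summed level was 619 CPM there and 333 and 363 CPM in the other WT libraries. Blood markers had a median of 0.84 with 3 of 5 highest in that library, and markers of differentiated cells, a list that holds all 9 let-7 miRNAs, a median of −0.76 with 4 of 15 highest. The part of these cells in the cluster's level was not tested.

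**Figure D2:**
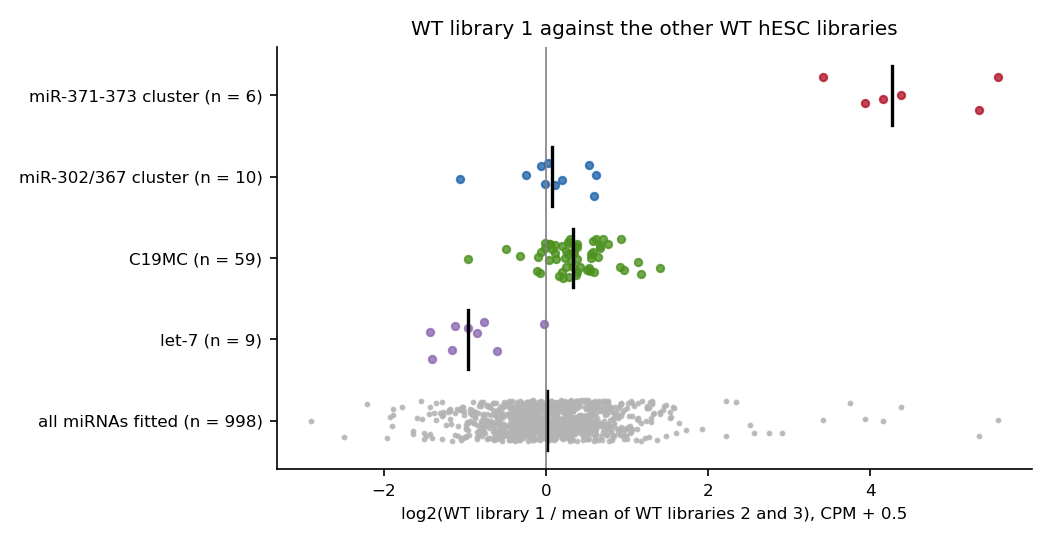
Each point is 1 miRNA, placed by the log2 ratio of its CPM (plus 0.5) in WT library 1 to the mean of WT libraries 2 and 3, with black bars at the median of each row. The cluster's 6 fitted members lie between 3.42 and 5.58, apart from C19MC, miR-302/miR-367 and let-7, whose medians are 0.33, 0.07 and −0.97.

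The make-up of the cluster also differed in WT library 1. miR-372-3p gave 70.6% of its cluster counts, against 80.3 to 88.8% in the other 14 hESC libraries. miR-371b-3p gave 17.5% there and 3.33 to 11.9% elsewhere, and miR-371a-5p gave 2.22% there and 0.346 to 1.53% elsewhere.

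Shares of the arms differed in that library too. miR-372-5p, the minor arm of its hairpin, made up 0.568% of the MIR372 counts in WT library 1 (95% Wilson interval 0.526 to 0.613%) and 0.166% (0.136 to 0.203%) of those in the 11 other hESC libraries with a listing, summed. miR-373-5p, also the minor arm, made up 2.79% of the MIR373 counts (2.37 to 3.27%) in WT library 1 and 0.805% (0.450 to 1.44%) in the other 5 listed libraries. For the doubled MIR371 locus, miR-371a-5p with miR-371b-3p made up 76.3% (75.9 to 76.7%) in WT library 1 and 60.4% (59.4 to 61.4%) in the other 14 libraries. These intervals hold within summed libraries and leave out the spread between them: single libraries ran between 38.9 and 70.2% in that last share, all below WT library 1. In the MIR372 share single libraries ran between 0 and 0.312%, also below it. In the MIR373 share they ran between 0.328 and 1.51%, on 11 minor-arm counts summed. There the intervals of WT library 3 (0.514 to 4.34%) and shPAPD5 library 1 (0.610 to 3.29%) included the value of WT library 1, so that difference is less sure.

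**Figure D3:**
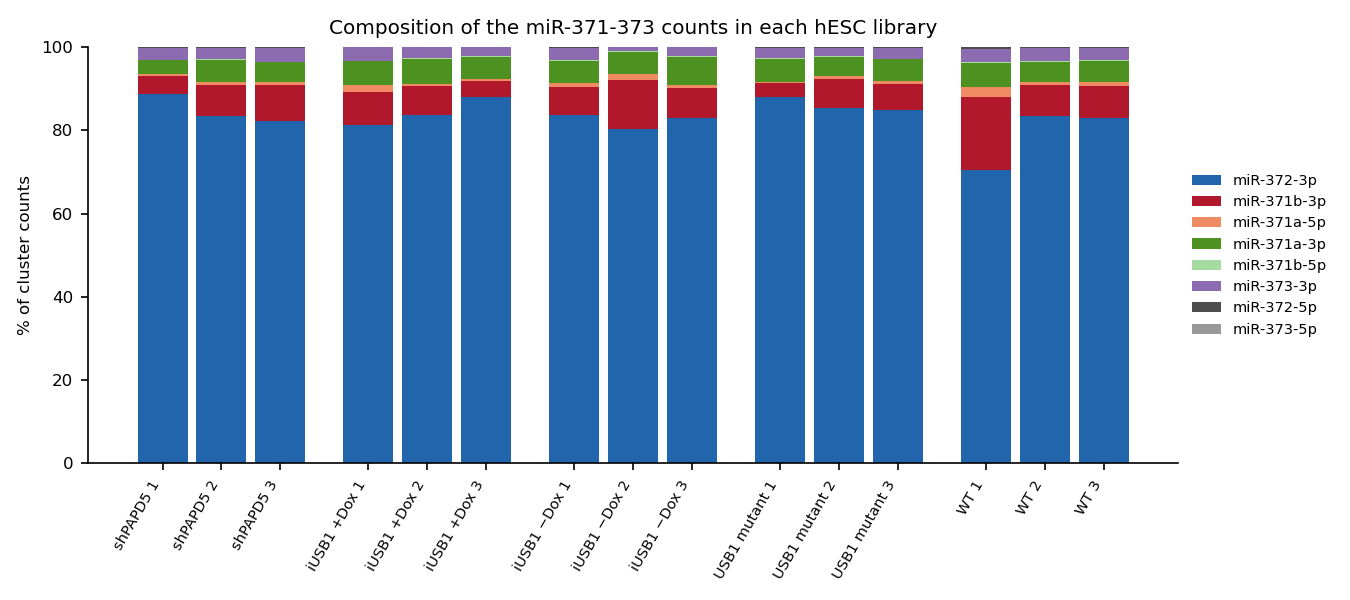
Stacked bars give each member's percent of the cluster counts in each hESC library, with unlisted members at 0. miR-372-3p makes up 70.6% in WT library 1 and at least 80.3% in every other library, and miR-371b-3p is largest in WT library 1, at 17.5%.

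miRNAs with the seed of miR-372-3p took 17.9 to 39.8% of all counts in hESC libraries, nearly all of them miR-302. miR-372-3p and miR-373-3p gave 3.57% (3.55 to 3.59%) of these seed counts in WT library 1 and 0.0150 to 0.341% in the other hESC libraries. Group by group the share was 0.192 to 0.341% in shPAPD5 cells, 0.0150 to 0.0265% in +Dox cells, 0.0414 to 0.0995% in −Dox cells, 0.0494 to 0.0596% in the mutant and 0.214 and 0.217% in WT libraries 2 and 3. The 10 seed partners from other loci summed to between 253794 and 381195 CPM in the mutant (median 266999), against 174426 to 195981 CPM in WT. The sum was 219951 to 281889 CPM in −Dox cells, 208591 to 270926 CPM in +Dox cells and 191644 to 228818 CPM in shPAPD5 cells. A higher sum than in WT was thus not particular to the mutant.

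Mutant and WT hESCs were compared to find miRNAs whose level changes when USB1 is lost before differentiation. All 6 fitted members fell in the mutant, with log2 changes of −3.91 (miR-372-3p, SE 0.95) to −6.06 (miR-371a-5p, SE 1.48), with edgeR quasi-likelihood adjusted p between 0.0203 and 0.0283. Of all 998 miRNAs 4.51% fell by this call, and for 11.5% all mutant libraries lay below all WT libraries, as for all 6 members. The same contrast without WT library 1 gave −1.40 (SE 0.30) for miR-372-3p and −1.40 to −1.95 over the 6. In that fit 5 of 6 were still called lower (adjusted p between 0.00426 and 0.0299, background 3.89% of 1028 miRNAs), and miR-371b-5p was not (adjusted p = 0.131). With all 3 WT libraries in the fit, leaving out any single mutant library left 0 of 6 called. DESeq2 gave an adjusted p for 1 of 6, miR-371b-5p, and called it. That member had 7, 7 and 1 counts in the mutant and 254, 9 and 15 in WT. It reached the count level of the filter only in WT and shPAPD5 libraries, and was not kept when mutant and WT were fitted alone. Its calls are therefore no support for the cluster, and those in −Dox and +Dox cells against WT share this limit.

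With all 3 WT libraries, the calls in miR-302/miR-367 were in the other direction. Its 10 arms had a median log2 change of 0.59 with 4 called higher (2.91% of all miRNAs were), among them miR-302b-3p (0.57, SE 0.16, edgeR adjusted p = 0.0379) and miR-302d-3p (0.58, SE 0.17, adjusted p = 0.0425), while miR-302a-5p gave −0.20 (adjusted p = 0.403). C19MC had a median of 0.06 with 1 of 59 called lower, and its leading members miR-516b-5p (−0.32), miR-512-3p (−0.16) and miR-1323 (−0.55) were not called. let-7 had a median of −0.38 with 1 of 9 called lower, let-7a-5p (−1.43, SE 0.34, adjusted p = 0.0203), which in WT was lowest in library 1, at 801 CPM against 1822 and 2404 CPM. let-7f-5p and let-7i-5p gave −0.38 and 0.33 and were not called. The median over all miRNAs was 0.04. Without WT library 1 none of the 10 miR-302/miR-367 arms was called, at a median of 0.67, with miR-302b-3p at 0.48 (adjusted p = 0.135) and miR-302d-3p at 0.56 (adjusted p = 0.0980). C19MC then had a median of 0.21 with 0 of 59 called, and let-7a-5p remained called (−1.78, SE 0.28, adjusted p = 0.00195).

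Markers of other cell types also moved in this comparison. Of the fibroblast markers 2 of 6 were called lower in the mutant (median −0.34, 5 of 6 negative), or 1 of 6 without WT library 1, and their sum ran between 320 and 370 CPM in mutant libraries, against 333 and 619 CPM in WT libraries. Of the markers of differentiated cells 3 of 15 were called lower (median −0.55, 12 of 15 negative), also 3 without WT library 1, and their sum ran between 1347 and 2399 CPM in mutant libraries, against 2885 and 5385 CPM in WT libraries. Blood markers had 0 of 5 called (median −0.79). In −Dox cells against WT 2 of 6 fibroblast, 2 of 15 differentiated and 1 of 5 blood markers were called lower. The part of such cells in the cluster's change was not tested.

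The −Dox cells, mutant with an uninduced transgene, were called lower than WT for 3 of 6 members, miR-372-3p (−3.78, SE 0.95, edgeR adjusted p = 0.0481), miR-373-3p (−4.65, SE 1.06, adjusted p = 0.0365) and miR-371b-5p (−4.03, SE 0.99, adjusted p = 0.0366), beside 3.41% of all miRNAs. For 5 of 6 all −Dox libraries lay below all WT libraries, as for 11.6% of all miRNAs. The other 3 gave −4.04 to −4.98 with adjusted p between 0.0527 and 0.0734. In the fit without WT library 1, miR-373-3p (−1.88), miR-372-3p (−1.25) and miR-371a-3p (−1.07) were called (background 2.33%) and miR-371b-5p was not (−1.37, adjusted p = 0.299). Leaving out any single −Dox library left 0 called.

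The +Dox comparison asks whether induced USB1 returned the cells to the WT level. All 6 members were lower in +Dox cells than in WT, with log2 changes of −5.07 (miR-371b-5p, SE 1.12) to −7.21 (miR-371b-3p, SE 1.47), with edgeR adjusted p between 0.00825 and 0.0222, beside 6.01% of all miRNAs. Leaving out WT library 1, the changes were −2.41 to −3.36, and 5 of 6 were called (background 4.28%), miR-371b-5p being the exception (adjusted p = 0.0654). All 6 members lay lower in every +Dox library than in every WT library, where 15.3% of all miRNAs did. Other lists moved in this comparison as well. C19MC had 7 of 59 called lower and 56 of 59 negative, at a median of −0.53, and without WT library 1 the median was −0.37 with 1 called. Markers called lower were 2 of 6 for fibroblasts, 5 of 15 for differentiated cells and 2 of 5 for blood (median −1.31), and 2, 4 and 1 without WT library 1. Their part in the cluster's level was not tested. Without +Dox library 2 none of the 6 was called with 3 WT libraries in the fit, and without +Dox library 1 there were 3.

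shPAPD5 cells, against WT, gave 0 calls among the members and among all 998 miRNAs (0%). At an unadjusted p under 0.05 there were 130 miRNAs (13%), all 6 members among them. DESeq2 called 26 miRNAs and gave no adjusted p for any of the 6 members. All 6 overlapped, where 10% of all miRNAs lay below WT and 9.32% above it in every library. The log2 changes of −2.08 (miR-372-3p, SE 0.88, edgeR adjusted p = 0.347) to −4.13 (miR-371a-5p, SE 1.32, adjusted p = 0.247) rested on WT library 1. Without it 5 of 6 turned positive, at 0.10 to 0.45, and miR-371b-5p stood at −0.36, with adjusted p between 0.792 and 0.972. The 4 comparisons with WT share the same 3 WT libraries and are not independent of each other.

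**Figure D4:**
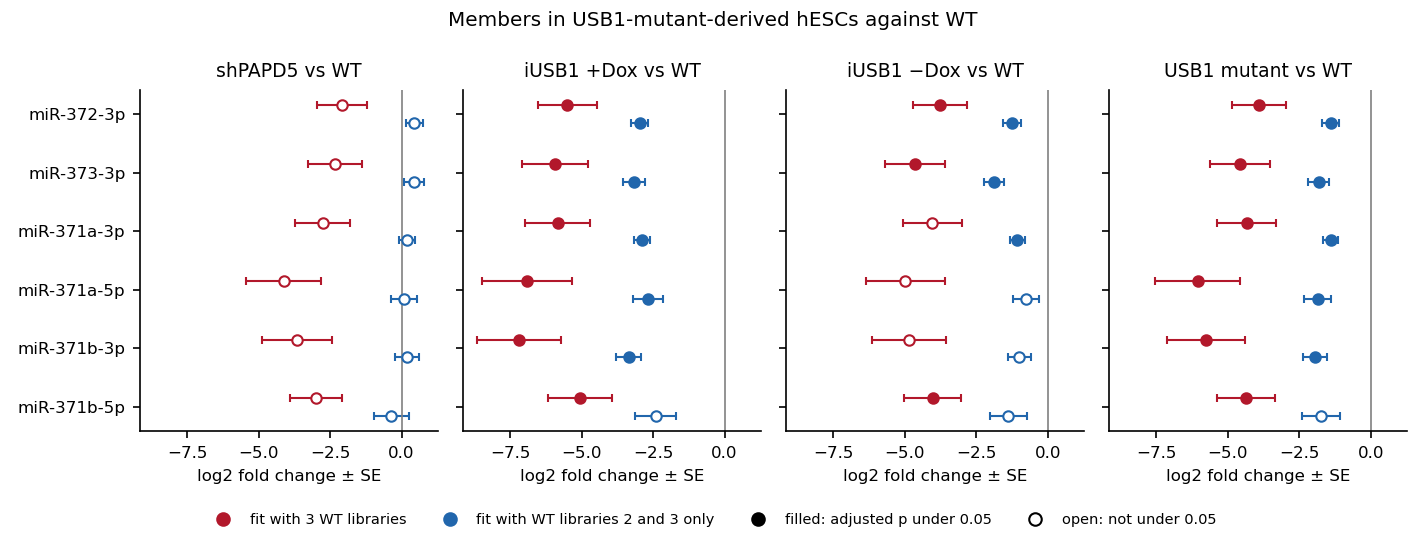
Log2 fold changes against WT with SE from the edgeR fit, for the 6 fitted members, with all 3 WT libraries (red) and without WT library 1 (blue), filled where the adjusted p is under 0.05. Without WT library 1 the shPAPD5 values of 5 of 6 members lie above 0 and that of miR-371b-5p at −0.36, while the values of +Dox, −Dox and mutant cells lie below 0.

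The comparisons among the USB1 mutant groups do not use WT levels. In the shared fit, however, WT library 1 still entered the estimate of the spread, and these comparisons were therefore also fitted without it, a choice made after the data were seen. That library was singled out by the values of these members. Leaving it out narrowed the spread estimated for them: in shPAPD5 against mutant cells the SE of miR-373-3p went from 0.98 to 0.33. The members are thus favoured among the calls of these fits, and their share of the calls is no test of the cluster. shPAPD5 against mutant cells gave 0 calls among the members and 0% of all 998 miRNAs with every library in the fit, with 116 (11.6%) at an unadjusted p under 0.05 and 8 by DESeq2, which gave no adjusted p for 5 of the 6 members. The log2 changes were 1.36 to 2.25, and 5 of 6 members lay higher in every shPAPD5 library than in every mutant library (8.52% of all miRNAs did), with miR-371b-5p as the exception.

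Fitted without WT library 1, 5 of 6 members were called higher in shPAPD5 cells than in the mutant. They made up 5 of the 8 miRNAs called higher (0.778% of 1028), a share that leaving out WT library 1 favours. miR-373-3p gave 2.27 (SE 0.33) and miR-372-3p 1.85 (SE 0.28), each with an edgeR adjusted p of 0.00191, and miR-371b-5p gave 1.38 (adjusted p = 0.326). A fit of these 6 libraries alone called 4 of the 6 members it held, which were all 4 miRNAs it called. That fit held miR-372-5p (edgeR adjusted p = 0.504) and left out miR-371b-5p.

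+Dox cells, against −Dox cells, gave 0 of 6 and 0% of all miRNAs called with every library in the fit, with 45 (4.51%) at an unadjusted p under 0.05, no member among them, and 1 by DESeq2, which gave no adjusted p for 5 of the 6. The log2 changes were −1.04 to −2.36, and 5 of 6 members lay lower in every +Dox library (7.11% of all miRNAs did), miR-371b-5p being the exception. When WT library 1 was left out, 3 of 6 members were called lower in +Dox cells. They were the 3 miRNAs called lower (0.292% of 1028), a share favoured by that choice. These were miR-371a-3p (−1.81, SE 0.26, edgeR adjusted p = 0.00206), miR-372-3p (−1.73, SE 0.28, adjusted p = 0.00642) and miR-371b-3p (−2.37, SE 0.41, adjusted p = 0.0125). The −Dox and +Dox groups differ in doxycycline as well as in USB1, and WT cells with doxycycline were not analysed here.

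shPAPD5 cells, against +Dox cells, had the widest gap among the mutant groups. All 6 members lay higher in every shPAPD5 library, where 12.9% of all miRNAs did. With every library in the fit 0 of 6 were called and 0% of all 998, with 117 (11.7%) at an unadjusted p under 0.05 and 13 by DESeq2, which again gave no adjusted p for 5 of 6. The fit without WT library 1 called 5 of 6 (1.36% of 1028 were higher), at 2.78 to 3.62, led by miR-373-3p (3.62, SE 0.37, edgeR adjusted p = 6.97e-06) and miR-372-3p (3.43, SE 0.30, adjusted p = 1.61e-06).

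−Dox and mutant cells, which both lack induced USB1, gave log2 changes of −0.07 to 1.08 with edgeR adjusted p between 0.832 and 0.988, 0 of 6 called and 0% of all miRNAs (89, or 8.92%, at an unadjusted p under 0.05, and 2 by DESeq2). All 6 members overlapped, where 5.31% of all miRNAs lay below and 5.81% above in every −Dox library.

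By a rule of likeness, the 5 other miRNAs whose log2 CPM followed the mean of the fitted members most closely over the 15 hESC libraries were miR-653-3p (Pearson r 0.917), miR-146a-5p (0.911), miR-326 (0.906), miR-522-3p (0.904) and miR-489-3p (0.904). Over the libraries other than WT library 1 their r were 0.834, 0.793, 0.862, 0.779 and 0.792 (n = 14), and miR-326 then led all miRNAs. miR-653-3p stood at 41.8 CPM in WT library 1 and at 16.7 and 17.1 CPM in the other WT libraries, a far smaller gap than in the cluster. Over the 5, WT library 1 was 1.71 to 2.93 times the mean of the other WT libraries.

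In K562 the cluster was near the counting limit. The 12 libraries held between 0 and 279 cluster counts each, at most 0.00212% of a library. Libraries that stand apart are given first. Control libraries 1 and 2 held 14569 and 9760 counts of miR-302/miR-367, 1469 and 1552 CPM of the library total, where control library 3 held 2 and the other 9 K562 libraries 0 to 7. These values are 0.331 and 0.350% of the mean in WT hESCs. For each 100 counts of miR-302/miR-367 these libraries held 0.885 and 0.840 counts of miR-372-3p, against 1.35 in WT hESC library 1, 0.0930 and 0.0901 in the other WT hESC libraries and at most 0.179 in the other hESC groups. Control library 3, with 2 counts of miR-302/miR-367, held 73 of miR-372-3p, so these ratios do not tell where the counts came from. Entry of hESC RNA or reads into these libraries, which would bring cluster members into the control level that KO cells are compared with, was not tested. KO library 3 was the shallowest, at 1530929 counts, where 3 counts are 1.96 CPM. KO shPARN library 1 stood apart in the sum of fibroblast markers, with 14740 CPM against 1137 and 2125 CPM in the other KO shPARN libraries. There 6 miRNAs were at least 10-fold above both other KO shPARN libraries. The fibroblast markers miR-143-3p and miR-199a-5p were among them, as were miR-122-5p, miR-122b-3p, miR-28-3p and miR-28-5p, which are not on that list.

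miR-372-3p had 34, 27 and 8 counts in KO shPARN libraries, 36, 21 and 0 in KO libraries, 223, 90 and 50 in control shPARN libraries and 129, 82 and 73 in control libraries. Scaled to 1e6 counts of the library total this was 3.49, 3.0 and 1.04 in KO shPARN, 3.8, 2.14 and 0 in KO, 16.9, 7.93 and 5.14 in control shPARN and 13.0, 13.0 and 6.91 in control libraries. All 6 libraries without USB1 lay below all 6 with it, as for 2.84% of the 881 miRNAs fitted in K562. The control shPARN libraries ran from below to above the control libraries, at 5.14 to 16.9 against 6.91 to 13.0. Their miR-302/miR-367 counts were 0 or 1, and the source of the control level was not tested.

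miR-373-3p had 4, 7 and 2 counts in KO shPARN libraries, 7, 17 and 0 in KO libraries, 24, 9 and 17 in control shPARN libraries and 26, 14 and 12 in control libraries. KO library 2 lay within the range of the control libraries. The arms of miR-371a and miR-371b, where listed, had 0 to 23 counts per library, with the highest, 23 and 16 counts of miR-371b-3p, in control shPARN library 1 and control library 1.

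miR-372-3p had a log2 change of −2.13 in KO against control cells (SE 0.69), which was not called (edgeR adjusted p = 0.112, background 3.18% of 881 miRNAs lower). All KO libraries lay below all control libraries, as for 15.8% of all miRNAs. DESeq2 gave −2.17 with an adjusted p of 0.0144. Without control libraries 1 and 2 the change was −1.60 (edgeR adjusted p = 0.708, the lone control library assumed to vary like the other groups), and without KO library 3 it was −1.79 (adjusted p = 0.153). Over the settings that left out 1 library its adjusted p ran between 0.128 and 0.287. miR-373-3p gave −0.87 (SE 0.64, adjusted p = 0.493) and −0.23 without control libraries 1 and 2.

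Under PARN hairpins, miR-372-3p in KO cells against control cells gave −2.02 (SE 0.66, edgeR adjusted p = 0.0837, background 4.2% lower). Here same-numbered libraries deviated together, and with the library number as a block the change was −2.03 with an edgeR adjusted p of 0.0121, a call. That block spanned all K562 groups, also the control columns, which carry no pairing. KO and KO shPARN libraries of the same number did not deviate together (correlations −0.009, 0.016 and 0.024), so this adjusted p is less sure. DESeq2 called it as well (−2.03, adjusted p = 0.00884). Both members lay lower in every KO shPARN library than in every control shPARN library, as did 14.1% of all miRNAs. Without KO shPARN library 1, the one that stood apart above, the change was −2.40 (adjusted p = 0.109), and over the settings that left out 1 library the adjusted p ran between 0.0619 and 0.228. miR-373-3p gave −1.60 (SE 0.67, adjusted p = 0.149), or 0.161 with the block.

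KO shPARN cells, against control cells without a hairpin, gave −1.87 for miR-372-3p (SE 0.66, edgeR adjusted p = 0.0892) and −1.78 for miR-373-3p (SE 0.67, adjusted p = 0.101), neither called, beside 5.56% of all miRNAs lower. Both members lay lower in every KO shPARN library (15.4% of all miRNAs). miR-372-3p was called by DESeq2 (−1.87, adjusted p = 0.0170), with library totals (edgeR adjusted p = 0.0440) and in a fit of these groups alone (edgeR adjusted p = 0.0453). Without control libraries 1 and 2 the changes were −1.36 and −1.13, with edgeR adjusted p of 0.545 and 0.639.

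No change of either member with the PARN hairpins passed the test. In control cells the changes were 0.15 (SE 0.62) for miR-372-3p and −0.18 (SE 0.59) for miR-373-3p, with edgeR adjusted p of 0.949 and 0.934, where 0.227% of all miRNAs were called lower and 1.25% higher. In KO cells they were 0.26 (SE 0.70) and −0.91 (SE 0.72), with adjusted p of 0.837 and 0.467, where 9.08% were called higher and 5.68% lower. Their interaction with the knockout was 0.11 (SE 0.93) and −0.73 (SE 0.92), not called, beside 1.82% of all miRNAs.

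**Figure D5:**
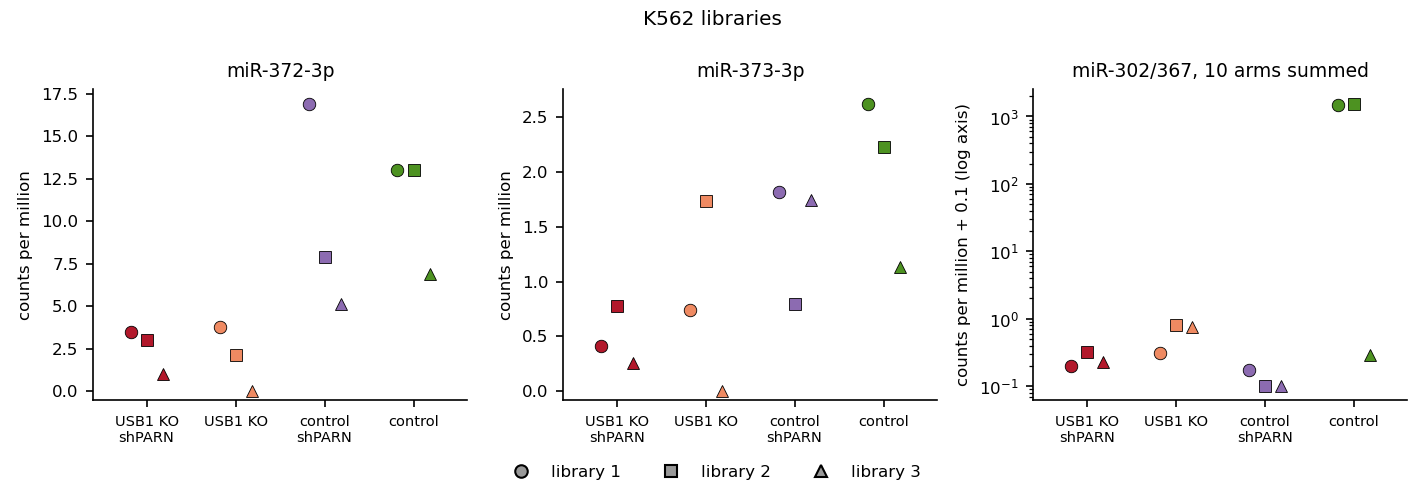
CPM of the library total in each K562 library for miR-372-3p and miR-373-3p on linear axes, and for the 10 arms of miR-302/miR-367 summed, plus 0.1, on a log axis. All 6 libraries without USB1 lie below the 6 with it for miR-372-3p (at most 3.8 against at least 5.14), and control libraries 1 and 2 stand apart in miR-302/miR-367 at 1469 and 1552.

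Between the lines, miR-372-3p stood at 33.8 to 6562 CPM of the library total in the 15 hESC libraries (median 192) and at 0 to 16.9 in the 12 K562 libraries (median 4.47), without overlap. For miR-373-3p the ranges were 1.07 to 288 in hESCs and 0 to 2.62 in K562, and they overlapped. WT hESCs against control K562 cells called all 5 members listed in both tables higher, by 6.85 (miR-373-3p, SE 1.66) to 11.5 (miR-371a-5p, SE 3.07), with edgeR adjusted p between 0.00597 and 0.0207. This is a comparison in which 37.9% of 894 miRNAs were called higher. Leaving out WT library 1, all 5 were called at 4.15 (miR-373-3p, SE 0.32) to 7.32 (miR-371a-5p, SE 0.64), with miR-372-3p at 6.48 (SE 0.24) and 36.6% of 920 miRNAs called higher. Of the K562 control libraries, 1 count of miR-371a-5p was found in the first and 0 in the other 2, so its fold change depends on the fit. DESeq2 gave no adjusted p for any of the 5, and without control libraries 1 and 2 none was called, at 7.43 to 13.2.

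The effect of USB1 loss was not shown to differ between the lines. In a fit of the mutant, WT, KO and control groups, the effect in hESCs minus that in K562 was −1.87 for miR-372-3p (SE 1.47, edgeR adjusted p = 0.712) and −3.80 for miR-373-3p (SE 1.70, adjusted p = 0.387), and for miR-371b-3p −3.59 (SE 3.42, adjusted p = 0.781), beside 2.76% of 905 miRNAs called. Without WT library 1 it was 0.58 for miR-372-3p (SE 0.56) and 0.21 for miR-371b-3p (SE 0.58), both with the sign turned, and −1.09 for miR-373-3p (SE 0.65), with edgeR adjusted p between 0.589 and 0.926 and 2.41% of 911 miRNAs called.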

How the data were processed

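The 27 small RNA libraries came from H1 hESCs, kept on Matrigel or on mouse feeder cells, and from K562 cells. Per the study's methods, the authors prepared libraries from DNA-free total RNA with a Lexogen small RNA kit and sequenced them on a NovaSeq. They trimmed reads with cutadapt 2.5, aligned them to human miRBase entries with Bowtie2 2.2.9 and no seed mismatch, and counted with SAMtools 1.3.1. What the authors deposited is 1 table a group of unnormalized read counts for mature miRNAs. How strand and reads with several matches were handled is not given in the sources used here. Nothing in the labels ties replicates to separate cultures. The study's figure legends call the data of WT and mutant hESCs and of WT and USB1 KO K562 cells biological replicates. The p-values rest on library-to-library spread, part of which may be technical. All 27 columns of values were used.

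miRNAs listed in every table of a line were filtered with filterByExpr (minimum count 10, total 15) and fitted once per line with edgeR 4.0.16 quasi-likelihood (TMM, robust option, no block; R 4.3.3). Calls use Benjamini-Hochberg adjusted p under 0.05 over all miRNAs fitted. Adaptor entries were removed. Groups came from the labels. The K562 control columns bear a name that is also the title of hESC samples, so they were tied by description to their group only, and carry no pairing. In the K562 block fit they took the number of their column. The fit script was tested on simulated data. Alternatives were DESeq2 1.42.0, its size factors, library totals, other filters, no robust option, 2 groups only, a replicate block, and leaving out libraries. The block was judged by whether same-numbered libraries deviated together: in KO shPARN against control shPARN the 3 correlations were 0.344, 0.164 and 0.219, and in every other comparison checked, all without K562 control, at least 1 was below 0.1. Named miRNAs were all members, the 5 most like them, and the 3 most abundant of each related list. Members, lists and tests were chosen with earlier results of these data known. Correlations and likeness use log2 CPM with a prior count of 0.5.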

Additional observations from a re-analysis of the deposited data

How the results depend on the processing

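Counts of members called changed as follows. DESeq2 gave an adjusted p for 1 of 6 members in the mutant, −Dox and +Dox comparisons with WT and called that 1 in each, and for none in shPAPD5 against WT, between the lines, or in hESC minus K562. It called miR-372-3p, 1 member, in KO against control, KO shPARN against control and KO shPARN against control shPARN. Fits of only the 2 groups compared called 0 in the mutant, −Dox and +Dox comparisons with WT, 1 for +Dox against −Dox, 4 for shPAPD5 against the mutant, 5 for shPAPD5 against +Dox, and 1 for KO shPARN against control. For −Dox against WT, library totals gave 1, no filter 0 and no robust option 6. Library totals called 1 in KO shPARN against control, and the stricter filter 1 in KO shPARN against control shPARN. Without WT library 1 in the fit, added after seeing the members' own values, 3 were called for +Dox against −Dox, 5 for shPAPD5 against the mutant and 5 against +Dox. Without K562 control libraries 1 and 2, also added, 0 of 5 were called between the lines. The cause of these changes was not tested.

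With the replicate number as a block, 2 of 6 members were called in the mutant and 1 in −Dox cells against WT, and miR-372-3p (1 of 2) in KO shPARN against control shPARN. The block was not run in comparisons that use K562 control, and changed no other count by over 1.5 times.

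Leaving out 1 library at a time, the number called ran between 0 and 6 for mutant, −Dox and +Dox cells against WT, 0 and 1 for shPAPD5 against WT, and 2 and 5 between the lines. Between the lines it was 3 without control library 1 and 2 without control library 2.

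No value whose direction turned passed the test. Leaving out 1 library, shPAPD5 against WT ran between −3.27 and 0.19 (miR-371a-3p), −4.67 and 0.10 (miR-371a-5p), −4.19 and 0.18 (miR-371b-3p), −2.56 and 0.45 (miR-372-3p), and −2.82 and 0.44 (miR-373-3p), positive only without WT library 1, as was the effect in hESCs minus K562, between −4.12 and 0.21 (miR-371b-3p) and −2.37 and 0.58 (miR-372-3p). −Dox against mutant ran between −0.082 and 0.39 (miR-372-3p) and −0.61 and 0.19 (miR-373-3p, and 0.043 with library totals). Control shPARN against control ran between −0.48 and 0.46 (miR-372-3p, and −0.13 with library totals) and −0.42 and 0.11 (miR-373-3p, and 0.51 without control libraries 1 and 2). KO shPARN against KO ran between −0.13 and 0.92 (miR-372-3p). The interaction ran between −0.27 and 0.76 (miR-372-3p, and −0.44 without control libraries 1 and 2) and −1.23 and 0.13 (miR-373-3p). At the depth of K562, 3 counts are up to 1.96 CPM, which limits miR-373-3p and the miR-371 arms.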
